A study of Mus musculus with 3 samples.

Results

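Mitochondrial ribosomal protein genes, which carry names that begin with Mrpl or Mrps and a digit, were followed through an Ets-1 chromatin precipitation and sequencing (ChIP-seq) experiment in Min6 cells, a mouse β-cell line from an insulinoma. They were chosen by name among the genes that the authors gave as nearest to a listed region, and they number 50 of 19054 such genes: 30 Mrpl genes of the large subunit and 20 Mrps genes, named for the small subunit. One library (n = 1) came from cells that carried a GFP adenovirus as control (Ad-GFP) for 24 h, precipitated with an Ets-1 antibody from CST. Another came from cells that carried an Ets-1 overexpression adenovirus (Ad-Ets-1) for the same time, precipitated with an antibody of the same name, and the third was an input library of chromatin without precipitation, whose virus the labels do not name. All cells were grown in 25 mM glucose and crosslinked in 1% formaldehyde for 10 min. Since the 3 groups hold 1 library each, differences could not be checked against replicates, and p-values are left out. The line is a single cell line, and binding reads do not measure which genes it expresses.

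The mitochondrial ribosome translates the few messenger RNAs of mitochondrial DNA, which encode core subunits of the respiratory chain and of ATP synthase. All of its proteins are encoded in the nucleus, made in the cytosol and imported, where they assemble with ribosomal RNAs of the mitochondrion into a small and a large subunit. In β cells, ATP from the respiratory chain closes potassium channels and so couples glucose to insulin release. Ets-1 belongs to the ETS family of transcription factors, which bind DNA at a GGAA core, and another member of that family, GABPA, is a known regulator of nuclear genes for mitochondrial proteins.

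Reads were few throughout. The deposited counts and RPM values (reads scaled by depth after adding 1) gave totals of 1938473 (Ets-1 virus), 1775757 (control virus) and 3937471 (input) reads. The 50 genes had 262 listed regions, of which 55 were annotated as promoter, a class that runs from 2 kb before to 1 kb after a start site. The median promoter region of these genes held 1 Ets-1 virus read, 2 control virus reads and 0 input reads. Even numbers made up 72.0% and 74.5% of the nonzero counts in the precipitated libraries against 19.03% in the input, so intervals of read ratios were computed on fragments of 2 reads. These 95% exact intervals cover counting error only; PCR copies, which no molecular identifier marks here, would make them too narrow. A region entered the tables because a peak was called in 1 of the libraries, so a high count beside a 0 is in part what the choice of regions gives. Coordinates are those of mm10, counted from 1.

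The promoter sequences come first, because the ETS word is the sequence feature that bears on an Ets-1 precipitation. RefSeq promoter windows of 300 bases (build GRCm38.p6, 250 bases before to 50 after a start site) were matched by symbol. They covered 69 of the 78 protein-coding genes of this name in GENCODE M21, in 75 windows. Of the 50 genes named in the files, 44 had a window. Mrps28, whose promoter was the best read of the group, had none, so the shares below leave it out. The word CCGGAAGT, searched on both strands, occurred in 12 of the 75 windows, or 16%, against 5.15% of 21262 windows of protein-coding genes and 3.89% of all 32851 windows. The word CAGGAAGT occurred in 3 windows, or 4%, against 3.24% of protein-coding windows. Either word occurred in 14 windows, or 18.7%, against 8.21% of protein-coding and 7.07% of all windows. Of the 15 words found, 12 began between 60 bases before and 10 bases after the start, limits that were chosen after the positions were seen; among protein-coding genes 50.3% of 1910 words did. The median word began 35 bases before the start here and 44 bases before it over all protein-coding genes. The windows below, in the direction of the gene with the ETS word in capitals, show the words of all 9 genes named in the files that hold one; Mrpl33 holds 1 word of each kind.
Mrpl10, chr11:97041572-97041611, plus strand: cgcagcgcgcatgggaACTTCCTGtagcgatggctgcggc
Mrpl16, chr19:11770357-11770396, plus strand: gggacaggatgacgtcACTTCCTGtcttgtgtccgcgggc
Mrpl27, chr11:94653720-94653759, plus strand: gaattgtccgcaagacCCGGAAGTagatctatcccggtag
Mrpl3, chr9:105053233-105053272, plus strand: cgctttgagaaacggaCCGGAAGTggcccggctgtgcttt
Mrpl33, chr5:31613897-31613936, plus strand: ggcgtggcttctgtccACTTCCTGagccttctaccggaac
Mrpl33, chr5:31613932-31613971, plus strand: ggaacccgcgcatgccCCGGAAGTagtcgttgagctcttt
Mrpl48, chr7:100583142-100583181, minus strand: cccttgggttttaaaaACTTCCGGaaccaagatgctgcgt
Mrps22, chr9:98601667-98601706, minus strand: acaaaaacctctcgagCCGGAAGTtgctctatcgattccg
Mrps26, chr2:130563726-130563765, plus strand: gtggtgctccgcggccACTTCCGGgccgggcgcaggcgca
Mrps27, chr13:99344721-99344760, plus strand: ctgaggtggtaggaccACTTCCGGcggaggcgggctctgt
In Mrpl10, Mrpl16, Mrpl48, Mrps26, Mrps27 and the upstream word of Mrpl33 the word reads on the opposite strand, and in the others on the strand of the gene. Mrpl10, Mrpl16 and Mrpl27 are also the 3 genes with well-read promoter regions in the control virus library, but only the Mrpl10 window lies inside the region listed for its gene, and those of Mrpl16 and Mrpl27 lie outside. The windows of Mrpl3, Mrpl33 and Mrpl48 also lie outside the promoter regions listed for those genes. None of Mrps22, Mrps26 and Mrps27 had a listed promoter region. A match is a description of the sequence and no evidence of binding.

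Words of other factors known for nuclear genes of mitochondria were counted in the same windows. The NRF1 core CGCATGCG occurred in 7 windows, or 9.33%, against 2.52% of protein-coding windows, and the YY1 word AAGATGGC in 12, or 16%, against 3.05%. The Sp1 word GGGCGG, common in GC-rich promoters, occurred in 52% against 46.2%. Genes with the YY1 word included Mrpl32, Mrpl36, Mrpl37, Mrpl42 and Mrps24, and Mrps27 held it beside an ETS word. Cytosolic ribosomal protein genes, compared as the most like group, held CCGGAAGT in 16%, the NRF1 core in 4% and the YY1 word in 10.7% of their 75 windows. The median GC content was 58.7% here and 56.3% over protein-coding windows, and its part in the word counts was not tested. Overlaps between different words were not removed.

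**Figure D1:**
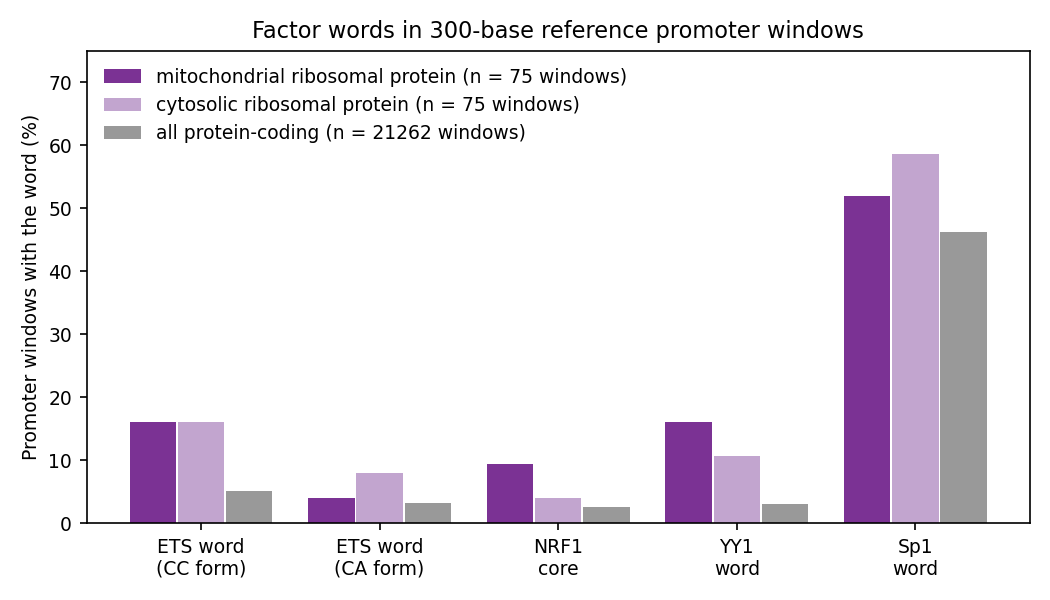
Share of 300-base RefSeq promoter windows (y axis, percent) that hold each factor word on either strand, for mitochondrial ribosomal protein genes, cytosolic ribosomal protein genes and all protein-coding genes. The CC form of the ETS word (CCGGAAGT) stood at 16% in both ribosomal groups and 5.15% in protein-coding genes, and the NRF1 core was at 9.33%, 4% and 2.52%.

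Promoters of these genes were not listed more often than those of other genes. With the Ets-1 virus, 18 of 50 genes (36%) had a promoter peak, 11 Mrpl and 7 Mrps genes, where the background over all named genes was 37.7%. With the control virus 22 of 50 (44%) did, 16 Mrpl and 6 Mrps genes, against a background of 48.6%. Both shares lay near the background. Promoter peaks were listed in both lists for 8 genes, with the Ets-1 virus alone for 10 and with the control virus alone for 14, or 16%, 20% and 28%, so that 32 genes had a promoter region and 18 had none. Over all named genes these shares were 24.2%, 13.4% and 24.4%. Cytosolic ribosomal protein genes had such peaks in 40% and 48.9% of 45 genes.

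A promoter region of 5 or more reads was found for 5 of 50 genes (10%) in the Ets-1 virus library and for 3 (6%) in the control virus library. The background was 5.53% and 3.47%. The 5 genes were Mrps28, Mrps30, Mrpl21, Mrpl41 and Mrpl20, and the 3 were Mrpl27, Mrpl10 and Mrpl16. No gene was in both groups, and over all named genes 0.614% were. A region with 5 or more reads and a scaled ratio (Ets-1 virus over control virus) of at least 2, with 0 reads set to a floor of 3, was found for 3 genes (6%), against 2.64% of all genes, and a ratio of at most 0.5 for 2 genes (4%), against 2.32%. Counts of 2 to 5 genes give no measure of whether the group differs from the background. The same rules gave 11.1% and 0% of cytosolic ribosomal protein genes with 5 or more reads, led by Rpl32 with 29 Ets-1 virus and 4 control virus reads and Rpl9 with 14 and 0.

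**Figure D2:**
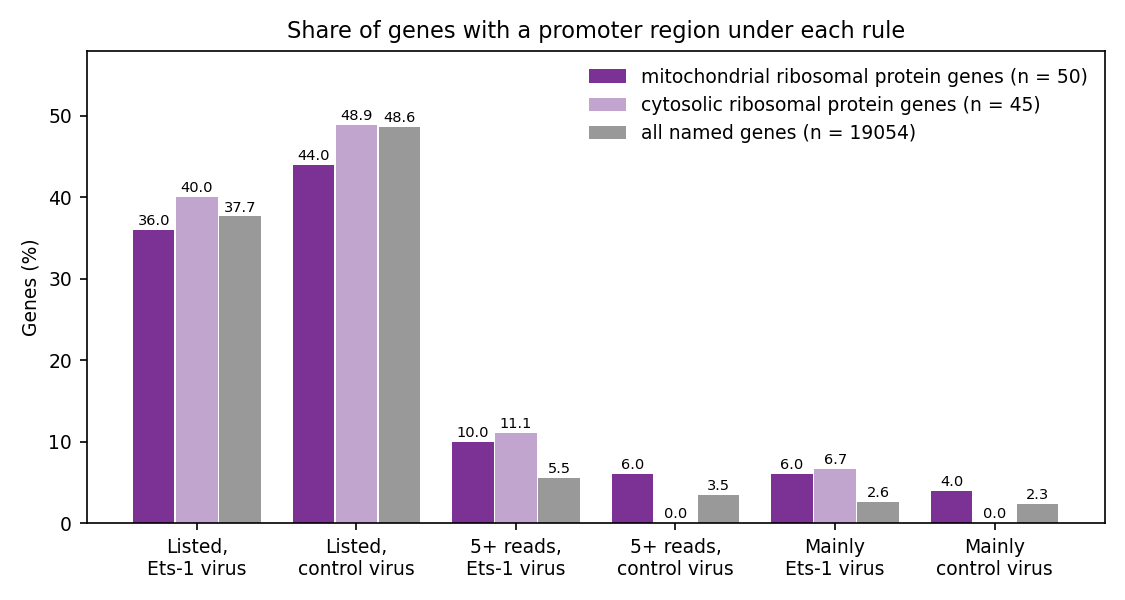
Percent of genes (y axis) with a listed promoter region, a promoter region of 5 or more reads, or a promoter region read mainly in 1 library, for mitochondrial ribosomal protein genes, cytosolic ribosomal protein genes and all named genes. Listed shares of 36% and 44% lay close to the 37.7% and 48.6% of all genes.

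Mrps28, which encodes a protein of the small subunit, had the best-read promoter of the group. Its region (ENSMUSG00000040269, chromosome 3, 8923529 to 8924065) held 16 Ets-1 virus reads, 0 control virus reads and 2 input reads. The Ets-1 virus library was high and the control virus library empty there. After scaling, the ratio was 4.89 with the control virus library set to the floor of 3 reads, a value that depends on that floor and is no lower bound. The exact interval on fragments, which covers the counting error of both libraries, began at 1.56 and had no upper end. Among the 8 well-read promoter regions, this was the only interval that left out 1. Those of the cytosolic ribosomal protein genes Rpl32 and Rpl9 did so too, from 1.598 and 1.32 up. Against the input the Mrps28 ratio was 16.2 (3.24 to 157). The regions of Mrps28, Rpl32 and Rpl9 were listed for Ets-1 virus peaks alone and named for high reads. Their intervals, against the control virus and against the input, are not independent of that choice. The authors' deposited table gave the Mrps28 peak a fold enrichment of 4.17 over local background and a q of 0.0376. By that fold it ranked 143 among the 18184 promoter peaks of the Ets-1 virus list. The region spans the annotated start site, and its summit lay 251 bases downstream of it. Neither ETS word was found in its 537 bases. The part upstream of the start is shown with the GGAA core on either strand in capitals, 1 match in 147 bases. It is not the stretch around the summit, which lies downstream of the start and is not shown: of the 3 GGAA cores in the region, the other 2 lie within the 151 bases centred on the summit.
Mrps28, chr3:8923919-8924065, minus strand: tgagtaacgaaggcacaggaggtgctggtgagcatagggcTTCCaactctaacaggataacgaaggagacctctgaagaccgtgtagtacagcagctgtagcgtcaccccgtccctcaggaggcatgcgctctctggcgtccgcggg

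Other promoters read with the Ets-1 virus held fewer reads. Mrps30 encodes a protein that carries a small-subunit name and sits in the large subunit of the mammalian mitochondrial ribosome. Its region (chromosome 13, 118386823 to 118387257) spans the start and held 8 Ets-1 virus reads, 1 control virus read and 0 input reads, a ratio of 7.33 (0.363 to 180). The wide interval rests on few fragments, and the ratio is not comparable with those against the floor of 3 reads: with the 1 read raised to that floor it was 2.44, below Mrps28. Mrpl21, a large-subunit protein, had a region (chromosome 19, 3282342 to 3282887) that ends at −14 bases (minus for upstream) from the annotated start and held 7, 0 and 1 reads. Its ratio against the floor of 3 reads was 2.14, with an interval that began at 0.605. In the authors' deposited table it had a fold of 3.71 and a q of 0.0289, the lowest q of any promoter peak of these genes. The start of Ighmbp2, a helicase gene on the opposite strand, lies within 1 kb of that of Mrpl21, and the same holds for B430218F22Rik and Mrps30, Pnpla7 and Mrpl41, Eme1 and Mrpl27, and Lrrc46 and Mrpl10. In these 5 pairs reads of the promoters cannot be told apart where a region lies between or across the starts.

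Mrpl20 and Mrpl41, both proteins of the large subunit, completed the group. The Mrpl20 region (chromosome 4, 155801798 to 155802046) lay at −832 bases from a start site and held 6 Ets-1 virus reads and 0 in each of the other libraries. The Mrpl41 region (chromosome 2, 24975261 to 24975509) lay at −163 bases and held 6, 0 and 2 reads in the same order. For both the ratio against the floor was 1.83 with an interval that began at 0.379, so a difference between the viruses was not detectable at this depth. The Mrpl41 region is shown whole, as a promoter read with the Ets-1 virus that holds neither ETS word and 1 GGAA core, in capitals.
Mrpl41, chr2:24975261-24975509, minus strand: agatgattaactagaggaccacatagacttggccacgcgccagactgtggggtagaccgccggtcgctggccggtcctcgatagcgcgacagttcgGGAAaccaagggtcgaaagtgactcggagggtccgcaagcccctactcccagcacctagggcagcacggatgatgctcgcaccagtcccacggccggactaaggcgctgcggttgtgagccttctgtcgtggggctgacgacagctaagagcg

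With the control virus the best-read promoter was that of Mrpl27, a large-subunit protein near the site of peptide bond formation. Its region (chromosome 11, 94654715 to 94654952) lay 684 bases downstream of a start site and held 8 control virus reads, 0 Ets-1 virus reads and 2 input reads. With the Ets-1 virus at the floor the ratio was 0.344, and the interval reached 1.39. Mrpl10, part of the stalk that binds translation factors, had a region across its start (chromosome 11, 97041409 to 97042105) with 6 control virus reads, 2 Ets-1 virus reads and 2 input reads, a ratio of 0.305 (0.00582 to 3.80), or 0.458 with the 2 Ets-1 virus reads raised to the floor. Mrpl16, a large-subunit protein with a bacterial counterpart, had a region 371 bases downstream of a start (chromosome 19, 11770786 to 11771279) with 5, 0 and 0 reads and a ratio against the floor of 0.550, with an interval up to 2.22. All 3 intervals span 1. The regions of Mrpl27 and Mrpl10 each held a CAGGAAGT word, at 123 and −323 bases from the summit in genome direction, and the Mrpl16 region held none. The authors' deposited table gave these 3 peaks folds of 3.10, 2.74 and 2.81 and the same q of 0.274.

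**Figure D3:**
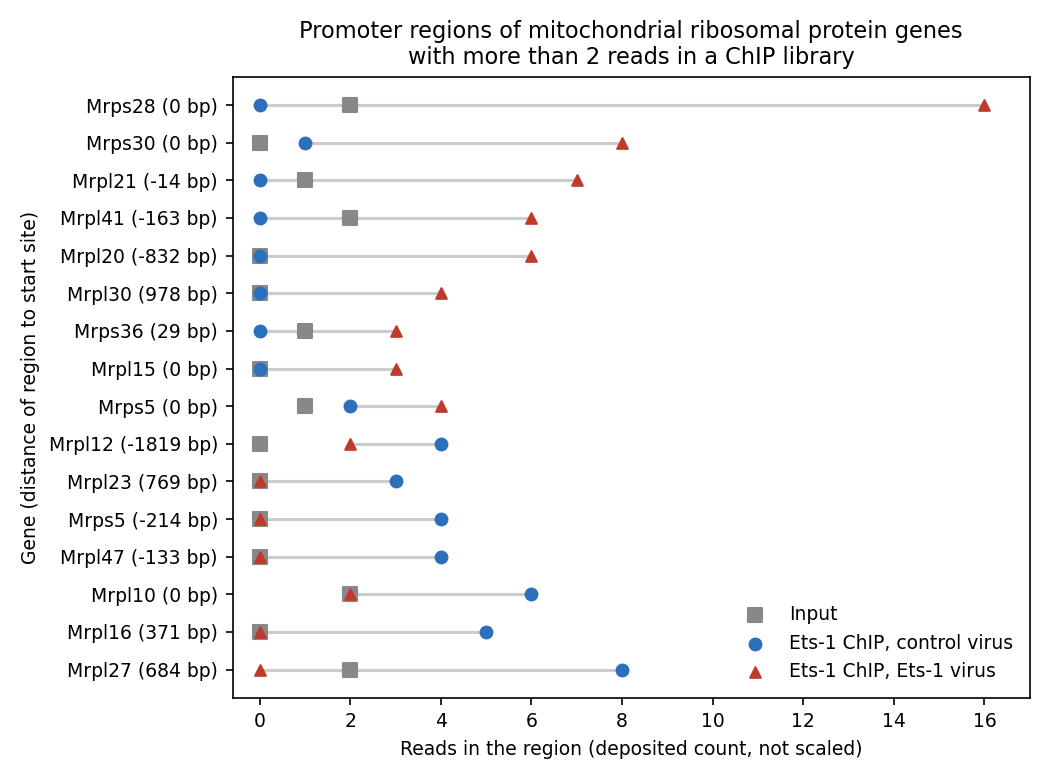
Reads (x axis, deposited counts, not scaled) in the 16 promoter regions with more than 2 reads in a precipitated library, 1 row per region with its distance to the start site in bp. Triangles are the Ets-1 virus library, circles the control virus library and squares the input. Mrps28 stands at 16 and 0 reads, and no region reached 5 reads in both precipitated libraries.

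The remaining promoter regions held 4 or fewer reads. Of the 55 regions, 16 held more than 2 reads in a precipitated library and 39 held 2 or fewer in both, or 70.9% against 77.6% of all 41781 promoter regions. Among the 32 genes, 8 had a region of 5 or more reads, 7 reached 3 or 4 and 17 stayed at 2 or fewer. Mrps5, a small-subunit protein with a bacterial counterpart, had 5 promoter regions, of which the one across a start held 4 Ets-1 virus and 2 control virus reads and another held 0 and 4. Mrpl30 reached 4 reads with the Ets-1 virus, and Mrpl47 reached 4 with the control virus. Mrpl12, the other stalk protein, held 2 and 4 reads in a region at −1819 bases from a start. Mrpl15 and Mrps36 reached 3 with the Ets-1 virus and Mrpl23 3 with the control virus. Mrps36 is named as a ribosomal protein and is also known as a subunit of the oxoglutarate dehydrogenase complex.

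The 8 genes with promoter peaks in both lists were Mrps5, Mrpl12, Mrpl47, Mrpl15, Mrpl23, Mrps10, Mrpl30 and Mrpl33, in order of their summed promoter reads. Only for Mrps5 and Mrpl12 was the same region called in both libraries, 2 of 55 regions (3.64%) against 6.61% of all promoter regions. These 2 regions together held 6 reads in each precipitated library. In the other 6 genes separate regions were called with each virus. Of the 8 genes with a well-read promoter 0 were among them, against 52.6% of all 1599 genes with a promoter region of 5 or more reads; with 8 genes this is a description.

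In the input, the highest count in a promoter region of these genes was 2, reached in the regions of Mrps28, Mrpl27, Mrpl10 and Mrpl41, with 1 read in 5 further regions. Those 4 are all among the 8 well-read regions. Of the 9 regions with any input read, 5 were well read. Over all genes, 711 of 3243 promoter regions with input reads were well read, against 2608 of all 41781 promoter regions. Input reads were present in 16.4% of these promoter regions, 20% of those of cytosolic ribosomal protein genes and 7.76% of all promoter regions.

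Summits of the well-read regions lay on both sides of the annotated start. Among the 5 regions with 5 or more Ets-1 virus reads, the summits of the best read, Mrps28 and Mrps30, lay 251 and 215 bases downstream, and those of Mrpl21, Mrpl41 and Mrpl20 lay at −150, −275 and −890 bases. Among the 3 with 5 or more control virus reads, those of Mrpl10, Mrpl16 and Mrpl27 lay 354, 540 and 793 bases downstream. Regions that span a start have a deposited distance of 0 wherever their summit lies. Promoter peaks that span a start made up 30.4% of the 23 Ets-1 virus promoter peaks and 20.6% of the 34 control virus promoter peaks. Over all promoter peaks the shares were 14.2% and 11.2%. Counted by promoter region, 21.8% spanned a start here, 37.8% in cytosolic ribosomal protein genes and 12.4% over all genes.

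**Figure D4:**
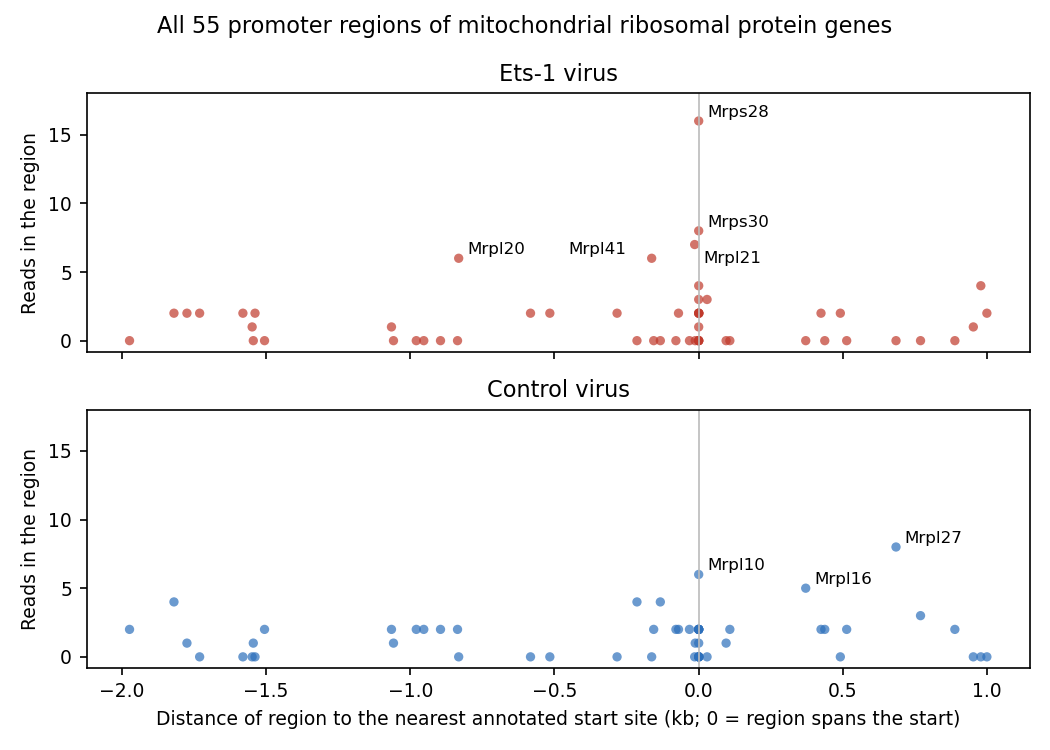
Reads per region (y axis, deposited counts) against the deposited distance to the nearest annotated start site (x axis, kb) for all 55 promoter regions, with the Ets-1 virus above and the control virus below. The 5 regions with 5 or more Ets-1 virus reads and the 3 with 5 or more control virus reads are named. A distance of 0 marks a region that spans the start, as for Mrps28, Mrps30 and Mrpl10, whose summits lay 251, 215 and 354 bases downstream.

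Summed over all 55 promoter regions, the precipitated libraries held nearly the same number of reads. The Ets-1 virus library held 93 reads, the control virus library 84 and the input 13. The scaled ratio of the viruses was 1.01 (0.662 to 1.59), and over all promoter regions it was 0.948, or 0.896 without the region annotated to Gm10800, a predicted gene that held many reads in all libraries. Without the Mrps28 region the ratio was 0.840 (0.536 to 1.35). The 20 regions of Mrps genes gave 1.502 (0.707 to 3.22), and the 35 of Mrpl genes 0.807 (0.451 to 1.39). A difference between the viruses over the group, or between Mrps and Mrpl genes, was not detectable at this depth. The names do not sort all genes by subunit, as Mrps30 shows. Relative to the input, scaled reads in these promoter regions were 14.5-fold higher (7.82 to 29.6) in the Ets-1 virus library and 14.3-fold higher (7.54 to 29.1) in the control virus library. Over all promoter regions without Gm10800 the values were 9.78 and 10.9, both within these intervals. Over the 10 regions with 5 or more reads in all libraries together, the virus ratio was 1.797 (0.908 to 3.88) and the ratios to input 10.4 (4.93 to 24.5) and 5.77 (2.34 to 14.7). Regions were listed for a peak in a precipitated library, so ratios to the input are not independent of that choice.

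Regions outside promoters made up 207 of the 262, with 103 distal intergenic, 67 intronic, 15 exonic and 19 in 3' UTRs. Promoters took 20.99% of the regions of these genes, 18.5% of those of cytosolic ribosomal protein genes and 7.69% of all regions. Outside promoters, 4 regions held 5 or more Ets-1 virus reads and 7 held 5 or more control virus reads. That is 11 of the 207 in either library, against 19817 of all 501586 regions outside promoters. Counts this small give no measure of whether the group differs from that background. The 4 Ets-1 virus regions belonged to Mrpl20, Mrpl48, Mrpl4 and Mrpl3, where 30 of the 50 genes are Mrpl genes. The 7 control virus regions belonged to genes of both names, among them Mrps35, Mrps5, Mrpl3, Mrpl36 and Mrps22. The Mrpl20 region, in exon 3 of 4 (chromosome 4, 155806824 to 155807076), held 10 Ets-1 virus reads, 0 control virus reads and 0 input reads, 3.05 against the floor with an interval that began at 0.839. An intronic Mrpl48 region held 8 and 0 reads. With the control virus the best read was a region at −4914 bases from the start of Mrps35, a small-subunit gene (chromosome 6, 147037592 to 147037850), with 9 control virus reads, 0 Ets-1 virus reads and 0 input reads. Its ratio against the Ets-1 virus floor was 0.305, with an interval up to 0.99968, just under 1. The region was listed for its control virus peak alone, so this interval is not independent of that choice. A region in the 3' UTR of Mrps5 held 8 control virus reads, 0 Ets-1 virus reads and 2 input reads.

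The 18 genes without a promoter region were Mrpl4, Mrpl13, Mrpl17, Mrpl28, Mrpl35, Mrpl45, Mrpl46, Mrpl50, Mrpl58, Mrps6, Mrps14, Mrps18a, Mrps21, Mrps22, Mrps25, Mrps26, Mrps27 and Mrps35. They include Mrpl58, which releases stalled peptides, and Mrps27, which binds RNA. Near the starts of Mrpl50 and Mrps21, regions were listed under Zfp189 and under no named gene. The Mrpl50 regions held 3, 0 and 0 reads and 0, 1 and 0 (Ets-1 virus, control virus, input). The Mrps21 region held 0, 2 and 0. For the others no region within 1 kb of a start was listed. A region without a peak is not listed, so reads at those promoters are not known here.

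Many of these genes share a start region with a neighbour, which bears on which gene a peak is assigned to. By GENCODE M21, 33 of the 78 genes (42.3%) had a start of a protein-coding gene on the opposite strand within 1 kb, against 12.3% of 21924 protein-coding genes. The share was 34% among the 50 genes named in the files and 57.1% among the 28 that were not named as nearest gene. When any listed region within 1 kb of a start was counted, 36 of the 78 genes had one, in 52 gene and region pairs, of which 8 were annotated to another gene or to none. Mrps34, a small-subunit gene that is not among the 50, shared a region annotated to Eme2 (chromosome 17, 24894828 to 24895330) with 9 Ets-1 virus reads, 2 control virus reads and 0 input reads, a ratio of 4.12 (0.513 to 217), or 2.75 with the 2 control virus reads raised to the floor. Mrps7 shared one annotated to Gga3 with 3, 8 and 2 reads, and Mrpl9 one annotated to Oaz3 with 0, 6 and 0. Counted in this way, 20 genes (25.6%) had a region called in the Ets-1 virus library and 24 (30.8%) one called in the control virus library, against 28.7% and 36.5% of protein-coding genes. Regions of 5 or more reads were found for 6 (7.69%) and 5 (6.41%), against 4.95% and 2.63%.

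Of the 55 promoter regions, 4 held CCGGAAGT or CAGGAAGT, or 7.27%. The share was 2.58% of 41743 promoter regions on chromosomes 1 to 19 and X, with the same median length of 249 bases. With 4 regions this is a description. All 4 held the form CAGGAAGT, and they belonged to Mrpl27, Mrpl10, Mrpl12 and Mrpl36. In that order, they held 0, 2, 2 and 0 Ets-1 virus reads and 8, 6, 0 and 2 control virus reads. None of the 5 promoter regions well read with the Ets-1 virus held either word. Among RefSeq windows, either word occurred in 12.5% of the 16 of genes called with the Ets-1 virus, which leave out Mrps28. The words lie in the windows of Mrpl3 and Mrpl33, outside the promoter regions listed for those genes. The share was 21.7% of the 23 of genes called with the control virus, where only the window word of Mrpl10 lies inside a listed promoter region. It was 18.6% of the 43 windows of the 40 matched genes with no promoter region under their own name. Those 40 include genes not named as nearest gene in the files. Some of these, such as Mrpl2 and Mrps7, had a listed region near a start under a neighbour's name.

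Other genes of mitochondrial translation, in lists chosen by role, had promoter regions in varying numbers, to be read against the all-gene shares of 37.7% and 48.6% for a promoter peak and 5.53% and 3.47% for 5 or more reads. A list made mainly of translation factors and messenger RNA regulators had 12 genes named in the files. Of these 12, 8 (66.7%) had a promoter peak in each peak list. Regions of 5 or more reads were found for 3 (25%) and 2 (16.7%), Ets-1 virus first here and below. Mtif2, the initiation factor gene, held 8 and 3 reads, Gfm1, an elongation factor gene, 6 and 0, and Guf1, which encodes a translational GTPase, 0 and 8. Of 16 genes of mitochondrial tRNA synthetases and a subunit of the glutamyl-tRNA amidotransferase, 8 (50%) and 9 (56.2%) had a promoter peak, and 3 (18.8%) and 1 (6.25%) had 5 or more reads. Fars2, Gars and Qrsl1 each held 5 Ets-1 virus reads and 0 control virus reads, and Nars2 held 1 and 6. Of 20 assembly genes, 3 (15%) and 10 (50%) had a promoter peak, and 3 (15%) and 0 reached 5 reads, namely Ngrn with 8 and 4, Malsu1 with 6 and 0 and Mtg1 with 6 and 2. Of 13 genes of mitochondrial DNA expression 4 (30.8%) and 7 (53.8%) had a promoter peak, and Polg2, a polymerase subunit, with 0 and 5 reads, was the only one to reach 5. Of 5 further genes tied to the mitochondrial ribosome under other names, 0 and 3 (60%) had a promoter peak, and none reached 5 reads. Neither the 5 nor the 3 are all ribosomal protein genes. With 5 to 20 genes a list these shares are descriptions. Intervals of the ratios between viruses spanned 1 for each of the 11 genes named here.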

How the data were processed

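Peak lists of both precipitated libraries and a table comparing them were used. The submitters' processing notes name BWA 0.7.12, MACS2 2.1.0, Trimmomatic, FastQC and build mm10; the sources used here give no settings, read filters or control for calling peaks. Each peak has a deposited ratio (fold enrichment) and −log10 q-value, and each region has deposited read counts, RPM values (of the count plus 1) and a log2 ratio, per the file headers. Peaks were called in each library separately, and annotation and nearest genes are those deposited; 86 of 88 transcripts of these genes had the coordinates of GENCODE M21, and 75 of 75 promoter windows matched the genome bases. Peak list starts were raised by 1.

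Library totals were recovered from counts and RPM. Ratios were scaled to them, with exact conditional binomial 95% intervals on fragments (2 reads, rounded up; input reads singly) and 0 set to a floor of 3 reads; no ratio is given where both libraries held 3 or fewer. Genes were named for promoter regions of 5 or more reads, a q of at most 0.05, the highest input, the best reads outside promoters or presence in both lists, with up to 4 genes per pathway list; the shown Mrps28 and Mrpl41 sequences, the ETS windows other than those of Mrpl10, Mrpl16 and Mrpl27, the genes named for YY1 words and the genes at shared starts were chosen after values were seen. The planned definition of a promoter assumed 3 kb, and the files use 2 kb. The genes and lists were chosen with earlier results of these data known. Interval and ratio code was tested on simulated data. The software was scipy 1.17.1, pandas 2.3.3 and numpy 2.4.6 in Python 3.11.15, with bedtools 2.31.1, matplotlib 3.10.9 and pysam 0.24.0.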

Additional observations from a re-analysis of the deposited data

How the results depend on the processing

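Each group holds 1 library, regions hold a median of 2 or fewer reads, and counts of genes therefore move with most thresholds. No paired analysis was possible because there is a single library of each kind. The 18 genes with an Ets-1 virus promoter peak fell to 2 at a q of at most 0.05 (Mrpl21 and Mrps28) and 3 at a fold enrichment of at least 3; the 22 with a control virus peak fell to 0 and 1. The 5 and 3 genes with 5 or more reads became 9 and 7 at 3 or more reads and 2 and 1 at 8 or more. For the control virus they were 5 when reads were summed over a gene's regions and 5 when any region within 1 kb of a start was counted. The 3 genes read mainly with the Ets-1 virus became 5 at a ratio of 1.5, 5 with unscaled reads, 5 with the count plus 1 and 1 (Mrps28) when the interval had to leave out 1, a setting chosen after seeing the data. The 2 read mainly with the control virus became 1 at a ratio of 3, 1 at 8 or more reads, 4 by start site and 0 by that interval. Raising counts of 1 or 2 to the floor as well, a choice made after seeing the data, left 3 and 2 genes, the same ones. Over regions with 5 or more reads in all libraries together, the pooled virus ratio was 1.797 (0.908 to 3.88) and that of the control virus to input 5.77. Without the 5 regions with the most reads, also chosen after seeing the data, the virus ratio was 0.797, and protein-coding windows as background were added in the same way. With GGAAGT as the word, 29.3% of windows matched, against 24.8% of protein-coding windows. Promoters within 1 kb gave the same or nearly the same counts (17 and 20 listed), and no direction called by an interval was reversed. The causes were not tested, beyond the fewer regions that stricter thresholds leave.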
